A study of Bos taurus with 48 samples.

Results

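The 4 genes described here are RGS1 (ENSBTAG00000021672), RGS2 (ENSBTAG00000034366), RGS20 (ENSBTAG00000003454) and GNAI1 (ENSBTAG00000002714). They were chosen by identifier, with earlier results of these data known, and make up 4 of the 25669 genes of the count table. Heterotrimeric G proteins carry signals from receptors at the cell surface, and their alpha subunit is active while it holds GTP. RGS proteins (regulators of G protein signalling) speed up the hydrolysis of that GTP and so end the signal. GNAI1 encodes one of the inhibitory alpha subunits, which lower adenylyl cyclase activity. Leukocytes use receptors coupled to inhibitory G proteins to follow chemokines.

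Total leukocytes were taken from 12 intact male Simmental calves, which the labels give as Continental, and each calf gave 1 library on each of d 0, 1, 2 and 7, so that 48 libraries fell into 8 groups of 6. The 6 weaned calves were separated from their dams at housing and penned with other weaned calves, whereas the 6 control calves were housed together with their dams. All calves were housed, and the d 0 sample was taken before that. A weaned calf therefore differed from a control calf in the loss of the dam and in its pen mates, which cannot be told apart, and every later day also followed housing in both treatments.

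Expression was measured as the number of reads on each gene, and is given as CPM, the counts per 1000000 counts of a library whose total was scaled by its TMM factor. Totals lay between 1662995 and 4256011 counts per library. A limit of 3 counts, at or under which a gene was taken to have few reads in a library, corresponded to 0.687 to 2.04 CPM. This limit allows for counting error only, and values at or under it were not removed. The 200 genes that differed most between calves were used to compare libraries, and 44 of the 48 libraries were most like the other libraries of their own calf. Since these genes were chosen by the labelled calves in the same libraries, the choice itself favours a match with the label. The exceptions were weaned calf 1758 on d 0, control calf 1755 on d 2, and weaned calves 1758 and 1770 on d 7, and on d 7 these latter calves were each most like the libraries of the other. Both d 7 libraries belong to the weaned group, so exchanging them would alter the pairing by calf but not the values of that group. Values of the 4 genes that changed direction or moved by over 1.5 times without these libraries are also given without them. Of 5 general leukocyte markers, 0 had a symbol in the sources used here, so that the labelled tissue was not checked against them. Genes were compared between libraries only, since no gene lengths were used.

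None of the 4 genes was called in any of the 10 comparisons of groups or of the 3 treatment by day interactions with edgeR's quasi-likelihood test, where a call required both 2-fold and an adjusted p (Benjamini-Hochberg) under 0.05. Of all genes tested, 0% were called in these comparisons, apart from control calves on d 7 against d 0, where 3.73% were called. The fits between days did not pair the libraries of a calf, whereas the interactions did. DESeq2 called 0 of the 4 genes as well, and gave no adjusted p for RGS20 and GNAI1 in the comparisons of weaned with control calves on d 7 and of control calves on d 7 with d 0, nor in the interaction on d 7. The study's tables list each of the 4 genes among those it called from these data, so the numbers of genes below are not independent of its results. At an unadjusted p under 0.05, 2 of the 4 genes were higher in weaned than in control calves on d 7, beside 17.6% of all genes tested. On d 1, 1 of 4 was higher, beside 1.03% of all genes. Against d 0, weaned calves had 2 of 4 higher on d 1, beside 6.07% of all genes. They had 1 of 4 higher on d 2, beside 1.39%, and 1 of 4 higher on d 7, beside 1.72%. In control calves, 1 of 4 was lower on d 7 than on d 0, beside 21.8% of all genes. In the interactions, 2 of 4 were higher in weaned calves on d 1, beside 13.7%, and 2 of 4 on d 7, beside 21.0%. The count was 0 of 4 between treatments on d 0 and d 2 (6.23% and 3.37% of all genes in either direction), in control calves on d 1 and d 2 (0.768% and 5.09%), and in the interaction on d 2 (7.20%).

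**Figure D1:**
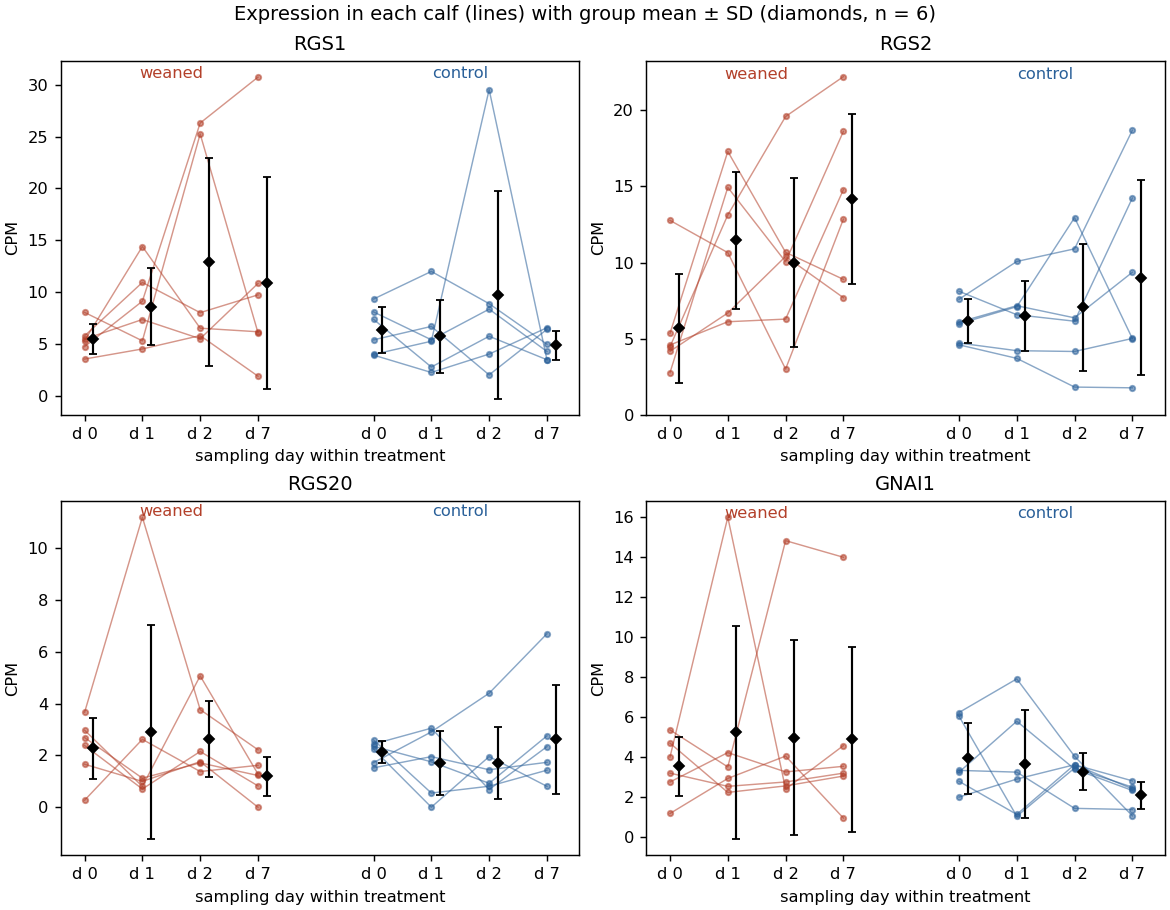
CPM of RGS1, RGS2, RGS20 and GNAI1 on each sampling day (x axis), with 1 line per calf, weaned calves in red and control calves in blue, and the mean ± SD of each group (n = 6) as a black diamond. RGS2 lay at 4.16 to 5.35 CPM in 4 of the 6 weaned calves on d 0 and at 7.69 to 22.2 CPM in all 6 on d 7. The high values of RGS1, RGS20 and GNAI1 came from a few libraries.

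In weaned calves, RGS2 was higher on d 7 than on d 0 in each of the 6 calves, by 1.32 on the log2 scale, which did not pass the threshold over all genes. RGS2 is induced quickly by many stimuli and acts mainly on alpha subunits of the Gq class. On d 0, its level in weaned calves was 2.76 CPM at the lowest, 4.52 at the median and 12.8 at the highest. On d 1 it was 6.11, 11.9 and 17.3 CPM, and on d 7 it was 7.69, 13.8 and 22.2 CPM. Between d 0 and d 7 the ranges overlapped only through calf 1762, which had 12.8 CPM on d 0, whereas the other 5 calves had at most 5.35 CPM.

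In weaned calves, RGS2 had 14.2 ± 5.60 CPM (SD, n = 6) on d 7 against 5.68 ± 3.57 CPM on d 0, a change of 1.32 on the log2 scale (SE 0.36, edgeR adjusted p = 0.920, unadjusted p = 0.00247). It was higher on d 7 in 6 of 6 weaned calves, from 0.0083 to 2.38 on the log2(CPM + 1) scale, which gave the smallest p that the exact two-sided permutation test of 6 calves allows (p = 0.03125). Without calves 1758 and 1770, whose d 7 libraries were most like each other's calf, the log2 change was 0.73 (SE 0.39, adjusted p = 1.00). It was then higher in 4 of 4 calves, where the exact permutation test cannot go below 0.125. On d 1, RGS2 had 11.5 ± 4.50 CPM (SD, n = 6), and its log2 change against d 0 was 1.02 (SE 0.36, adjusted p = 0.423, unadjusted p = 0.0114). It was higher in 5 of 6 calves, and lower in calf 1762 (exact two-sided permutation p = 0.0625). On d 2 the log2 change was 0.83 (SE 0.42, adjusted p = 0.944), or 0.49 without calf 1758 (SE 0.41, adjusted p = 1.00), and calf 1762 had 2.996 CPM, the lowest value of the group.

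In control calves, RGS2 had 6.17 ± 1.45 CPM (SD, n = 6) on d 0 and 6.47 ± 2.31 CPM on d 1, which differed by 0.05 on the log2 scale (SE 0.28, adjusted p = 0.999). The changes within control calves on d 1 lay between -0.27 and 0.37 on the log2(CPM + 1) scale, against -0.24 to 2.08 in weaned calves. The difference of the changes, fitted as a treatment by day interaction, was 1.03 on d 1 (SE 0.39, adjusted p = 0.200), 0.81 on d 2 (SE 0.58, adjusted p = 0.513) and 1.02 on d 7 (SE 0.49, adjusted p = 0.138). Without the libraries that resembled another calf, the interaction on d 7 was 0.44 (SE 0.44, adjusted p = 0.598). On d 2 and d 7 the changes in control calves were 0.17 (SE 0.37, adjusted p = 0.850) and 0.53 (SE 0.40, adjusted p = 0.327). The control calves lay further apart on d 7, with 1.76 CPM at the lowest, 7.18 at the median and 18.7 at the highest. Calves 1759 and 1803 stood above the other 4 control calves, with 18.7 and 14.2 CPM.

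Between treatments, RGS2 on d 1 was 6.11, 11.9 and 17.3 CPM (lowest, median and highest) in weaned calves and 3.70, 6.83 and 10.1 CPM in control calves. The groups overlapped, with 4 of 6 weaned calves above every control calf. The log2 difference was 0.82 (SE 0.32, adjusted p = 0.959), and the exact two-sided permutation p was 0.0498. For the day after weaning, the study reports a larger share of neutrophils in the blood of weaned than of control calves. It reports the reverse for lymphocytes. The part of cell shares in the RGS2 values of d 1, between treatments or against d 0, was not tested. Before housing, on d 0, the log2 difference was -0.14 (SE 0.33, adjusted p = 0.854). On d 2 it was 0.52 (SE 0.44, adjusted p = 0.9497) and on d 7 it was 0.67 (SE 0.43, adjusted p = 0.2995), with overlapping groups each time. The d 2 value was 0.25 without weaned calf 1758 and 0.83 without control calf 1755 (SE 0.46, adjusted p = 0.914). The d 7 value was 0.31 without weaned calves 1758 and 1770 (SE 0.45, adjusted p = 0.767). These calves had the highest RGS2 of the weaned group on d 7, with 22.2 and 18.6 CPM. In order of their means, the levels of RGS2 ran from weaned calves on d 0 through control calves on d 0, 1, 2 (7.05 ± 4.17 CPM) and 7 (9.01 ± 6.42 CPM) to weaned calves on d 2 (10.0 ± 5.58 CPM), d 1 and d 7. Each step in this order was smaller than the larger SD of the neighbours.

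**Figure D2:**
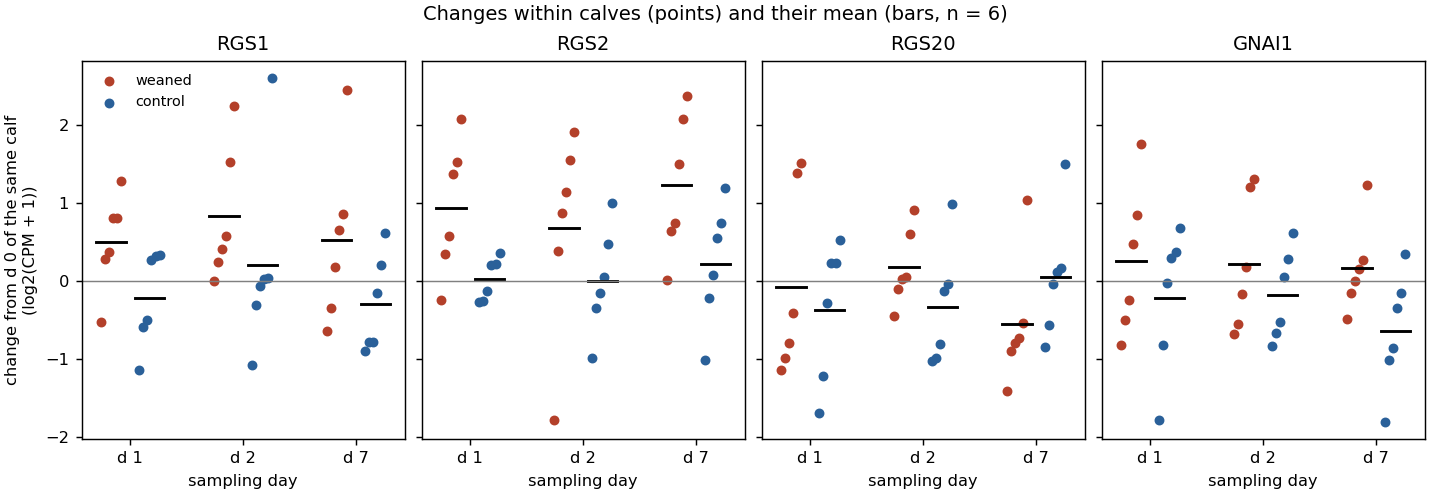
Change from d 0 of the same calf in log2(CPM + 1) (y axis) on d 1, 2 and 7 (x axis), with 1 point per calf, weaned calves in red, control calves in blue, and a bar at the mean of 6 calves. All 6 weaned calves lie above 0 for RGS2 on d 7 and for RGS1 on d 2, against 4 of 6 and 3 of 6 control calves.

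RGS1, which is expressed in activated lymphocytes and restrains their migration towards chemokines, reached its high values in a few libraries. In weaned calves, its level was 3.57 CPM at the lowest, 5.42 at the median and 8.06 at the highest on d 0. It was 5.53, 7.29 and 26.3 CPM on d 2, and 1.92, 7.97 and 30.7 CPM on d 7. On d 2, calves 1758 and 1762 had 26.3 and 25.3 CPM and the other 4 had at most 8.04 CPM. On d 7, calf 1758 alone had 30.7 CPM and the next calf 10.9 CPM. In control calves, calf 1789 had 29.5 CPM on d 2 and the next calf 8.90 CPM.

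RGS1 had 12.9 ± 10.0 CPM (SD, n = 6) in weaned calves on d 2 against 5.51 ± 1.48 CPM on d 0, and the change was 1.21 on the log2 scale (SE 0.43, adjusted p = 0.944). It was higher in 6 of 6 calves (exact two-sided permutation p = 0.03125, the smallest possible), although the smallest of these changes was 0.0073 on the log2(CPM + 1) scale. Without calf 1758, whose d 0 library resembled another calf, the log2 change was 0.81 (SE 0.42, adjusted p = 1.00). The changes against d 0 were 0.64 on d 1 (SE 0.29, adjusted p = 0.423) and 0.98 on d 7 (SE 0.47, adjusted p = 0.920). The d 7 value was 0.31 without calf 1758 and 0.17 without calves 1758 and 1770 (SE 0.45, adjusted p = 1.00), when 2 calves were higher and 2 lower than on d 0. In control calves, they were -0.14 on d 1 (SE 0.38, adjusted p = 0.999), 0.68 on d 2 (SE 0.46, adjusted p = 0.6248) and -0.38 on d 7 (SE 0.30, adjusted p = 0.342). The control value on d 2 was -0.14 without calf 1789. In order, the means of RGS1 were 4.89 ± 1.37 CPM in control calves on d 7, 5.51 ± 1.48 in the weaned group before housing, 5.75 ± 3.50 and 6.37 ± 2.25 in control calves on d 1 and d 0, and 8.63 ± 3.70 in weaned calves on d 1. The next were 9.78 ± 10.0 CPM in control calves on d 2, and 10.9 ± 10.2 and 12.9 ± 10.0 in weaned calves on d 7 and d 2 (SD, n = 6). Neighbours in this order differed by less than the larger of their SDs, and the SD of the 3 highest groups was close to the mean.

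Between treatments on d 7, RGS1 was 1.92, 7.97 and 30.7 CPM in weaned calves and 3.51, 4.65 and 6.58 CPM in control calves (lowest, median and highest). The groups overlapped, with 3 weaned calves above and 1 below every control calf. The log2 difference of 1.16 (SE 0.47, adjusted p = 0.168) was 0.54 without calf 1758 and 0.37 without calves 1758 and 1770 (SE 0.39, adjusted p = 0.689). Without weaned calf 1809, which had the lowest RGS1 of all libraries on any day, it was 1.38 with an adjusted p of 0.0300, and RGS1 was called. In that setting, 1137 of the 13852 genes tested were called. Between treatments, RGS1 differed by -0.21 on d 0 (SE 0.28, adjusted p = 0.740), 0.56 on d 1 (SE 0.39, adjusted p = 0.959) and 0.32 on d 2 (SE 0.56, adjusted p = 0.951) on the log2 scale. The d 2 value was -0.04 without weaned calf 1758. The interaction was 0.82 on d 1 (SE 0.38, adjusted p = 0.218), 0.66 on d 2 (SE 0.58, adjusted p = 0.571) and 1.03 on d 7 (SE 0.51, adjusted p = 0.153).

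GNAI1 stood out in 3 libraries of weaned calves. Calf 1773 had 16.0 CPM on d 1, and calf 1758 had 14.8 CPM on d 2 and 13.99 CPM on d 7. Every other library had at most 7.92 CPM. These libraries held 50%, 53.9% and 48.1% of the GNAI1 counts of their groups. In weaned calves, the level was 1.19, 3.61 and 5.36 CPM (lowest, median and highest) on d 0 and 0.961, 3.38 and 13.99 CPM on d 7. The medians differed little, and the log2 change from d 0 was 0.46 (SE 0.50, adjusted p = 0.920), or -0.04 without calf 1758.

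In control calves, GNAI1 was 1.07, 2.38 and 2.82 CPM (lowest, median and highest) on d 7 against 2.01, 3.30 and 6.23 CPM on d 0. The groups overlapped, and 5 of 6 calves had less on d 7 than on d 0. The log2 change was -0.87 (SE 0.37, adjusted p = 0.0916), and the exact two-sided permutation p was 0.0938. On d 1 and d 2 the changes were -0.09 (SE 0.46, adjusted p = 0.999) and -0.24 (SE 0.33, adjusted p = 0.751). The means of GNAI1 ran from 2.09 ± 0.694 CPM in control calves on d 7 through 3.27 ± 0.921 in the same calves on d 2, 3.54 ± 1.49 in the weaned group before housing, and 3.68 ± 2.70 and 3.95 ± 1.77 in control calves on d 1 and d 0. Above these were weaned calves on d 7, d 2 and d 1, with 4.89 ± 4.61, 4.98 ± 4.86 and 5.24 ± 5.31 CPM (SD, n = 6). Only the lowest pair of neighbours, control calves on d 7 and d 2, lay further apart than the larger of their SDs.

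Between treatments on d 7, GNAI1 was above every control calf in 5 of 6 weaned calves and below every control calf in calf 1809. The lowest of those 5, calf 1762, had 10 counts (3.06 CPM), and the highest control calf, 1789, had 8 counts (2.82 CPM). Control libraries held 3 to 10 counts and calf 1809 held 3, so that this ordering carries a large counting error. The log2 difference was 1.197 (SE 0.50, adjusted p = 0.172). It was 0.55 without calf 1758, 0.48 without calves 1758 and 1770 (SE 0.44, adjusted p = 0.657), and 1.40 without calf 1809, with an adjusted p of 0.0355 and a call. Without calf 1809, 1137 of the 13852 genes tested were called. On d 0 the log2 difference had been -0.15 (SE 0.36, adjusted p = 0.854). On d 1 and d 2 it was 0.48 (SE 0.57, adjusted p = 0.959) and 0.59 (SE 0.46, adjusted p = 0.9497). The interaction was 0.53 on d 1 (SE 0.58, adjusted p = 0.580), 0.56 on d 2 (SE 0.51, adjusted p = 0.581) and 1.11 on d 7 (SE 0.50, adjusted p = 0.122).

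RGS20, of a subgroup of RGS proteins that acts on the alpha subunit Gz, had few counts. It had 364 counts in all, 2 libraries at 0 and 10 libraries at or under 3 counts, so that its values carry a large counting error. Calf 1769 on d 1 had 44 counts (11.2 CPM), which was 64.7% of the counts of its group, and the other 5 calves had at most 2.62 CPM. Control calf 1789 had 6.70 CPM on d 7 and 4.40 CPM on d 2, the highest of both groups.

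On d 7, RGS20 was 0, 1.25 and 2.22 CPM in weaned calves and 0.806, 2.04 and 6.70 CPM in control calves (lowest, median and highest). The groups overlapped, with 1 weaned calf below every control calf. The log2 difference was -1.09 (SE 0.58, adjusted p = 0.231). It was -0.57 without control calf 1789, and -0.25 with flowcell as a block (SE 0.65, adjusted p = 0.816). In weaned calves it was lower on d 7 than on d 0 in 5 of 6 calves, with a log2 change of -0.90 (SE 0.56, adjusted p = 0.920). On d 1 the log2 difference between treatments was 0.75 (SE 0.77, adjusted p = 0.959), and without calf 1769 it was -0.45. On d 0 and d 2 it was 0.08 (SE 0.40, adjusted p = 0.930) and 0.57 (SE 0.48, adjusted p = 0.9497). The interaction was 0.51 on d 1 (SE 0.82, adjusted p = 0.716), 0.63 on d 2 (SE 0.57, adjusted p = 0.582) and -1.02 on d 7 (SE 0.72, adjusted p = 0.2998). The means of RGS20 lay between 1.19 ± 0.748 CPM in weaned calves on d 7 and 2.91 ± 4.12 CPM in weaned calves on d 1 (SD, n = 6), and every step between neighbours in their order was smaller than the larger SD.

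**Figure D3:**
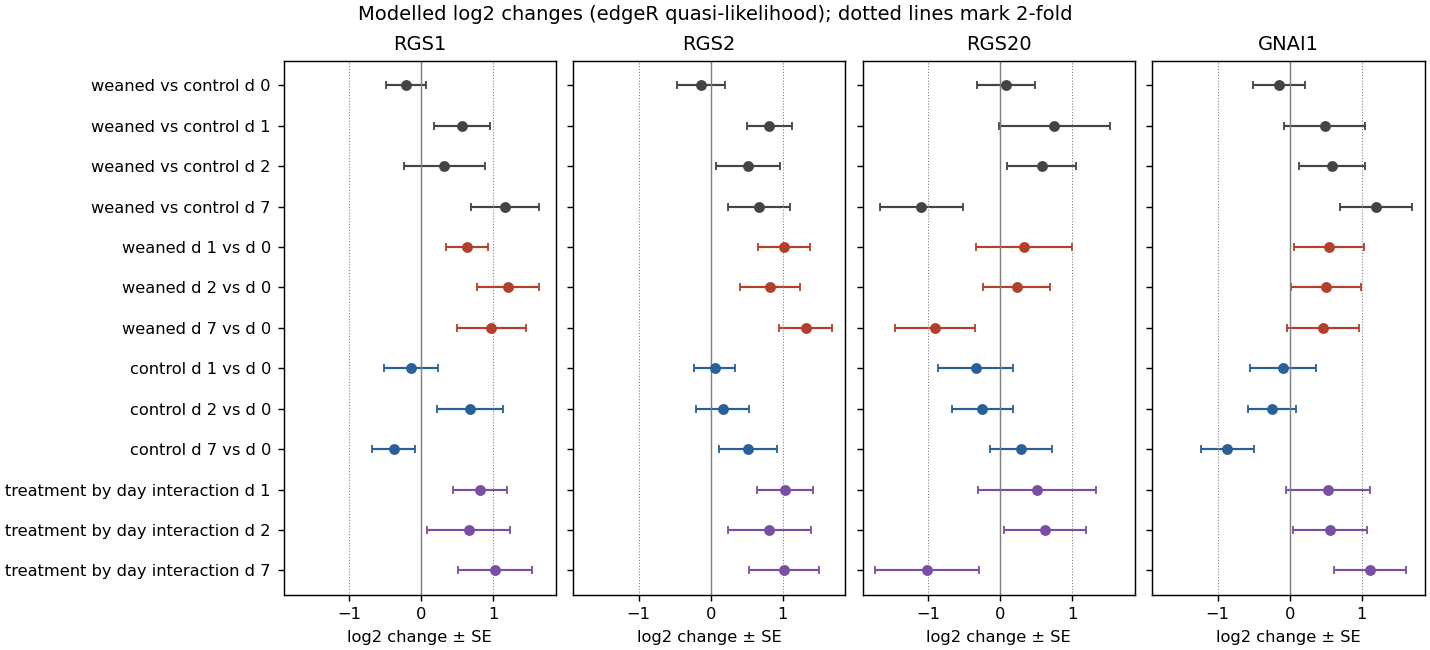
Modelled log2 change ± SE (x axis) of each gene in the 10 comparisons of groups and the 3 treatment by day interactions (y axis). Black marks weaned against control calves, red and blue a later day against d 0 within weaned and control calves, purple the interactions, and dotted lines 2-fold. Between treatments on d 7, RGS20 (-1.09 ± 0.58) lies below 0, and RGS1, RGS2 and GNAI1 lie above it.

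Several further values moved without the libraries that resembled another calf. RGS1 then had interactions of 0.16 on d 2 (SE 0.57, adjusted p = 1.00) and 0.49 on d 7 (SE 0.45, adjusted p = 0.570), and RGS2 had a change of -0.16 in control calves on d 2 (SE 0.38, adjusted p = 0.943). GNAI1 had interactions of 0.13 on d 2 (SE 0.52, adjusted p = 1.00) and 0.72 on d 7 (SE 0.53, adjusted p = 0.490), and differed by -0.32 between treatments on d 0 (SE 0.38, adjusted p = 0.829). The change of GNAI1 against d 0 was -0.06 on d 2 and -0.14 on d 7 in weaned calves, and -0.13 on d 2 in control calves. RGS20 had interactions of 0.41 on d 2 and -0.64 on d 7, and differed by -0.71 between treatments on d 7 (SE 0.54, adjusted p = 0.604). Its change against d 0 was 0.55 on d 1 and -0.58 on d 7 in weaned calves, against 0.33 (SE 0.67) and -0.90 with these libraries, and -0.03 on d 2 in control calves, against -0.25 (SE 0.42). None of the 4 genes was called without these libraries.

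Flowcell and the choice of test moved others. With flowcell as a block, RGS1 was 1.30 higher in weaned calves on d 1 (SE 0.43, adjusted p = 0.362), against 0.56 without the block (SE 0.39, adjusted p = 0.959). Treatments were not spread evenly over the flowcells. Flowcell A held 3 libraries, all of control calves, and flowcell H held 3, all of weaned calves. Of 7 libraries each, flowcell F held 2 of weaned calves, G held 3, and B, C, D and E held 4. The common dispersion of edgeR's exact test, which is the same for every gene, gave calls to RGS1 and GNAI1 between treatments on d 7 (adjusted p = 0.00445 and 0.0150), beside 6.21% of all genes. In weaned calves against d 0, it called RGS2 on d 1 and d 7 (adjusted p = 0.0268 and 0.00319), beside 0.456% and 0.271% of all genes, and RGS1 on d 2 (adjusted p = 0.0127), beside 0.443%.

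**Figure D4:**
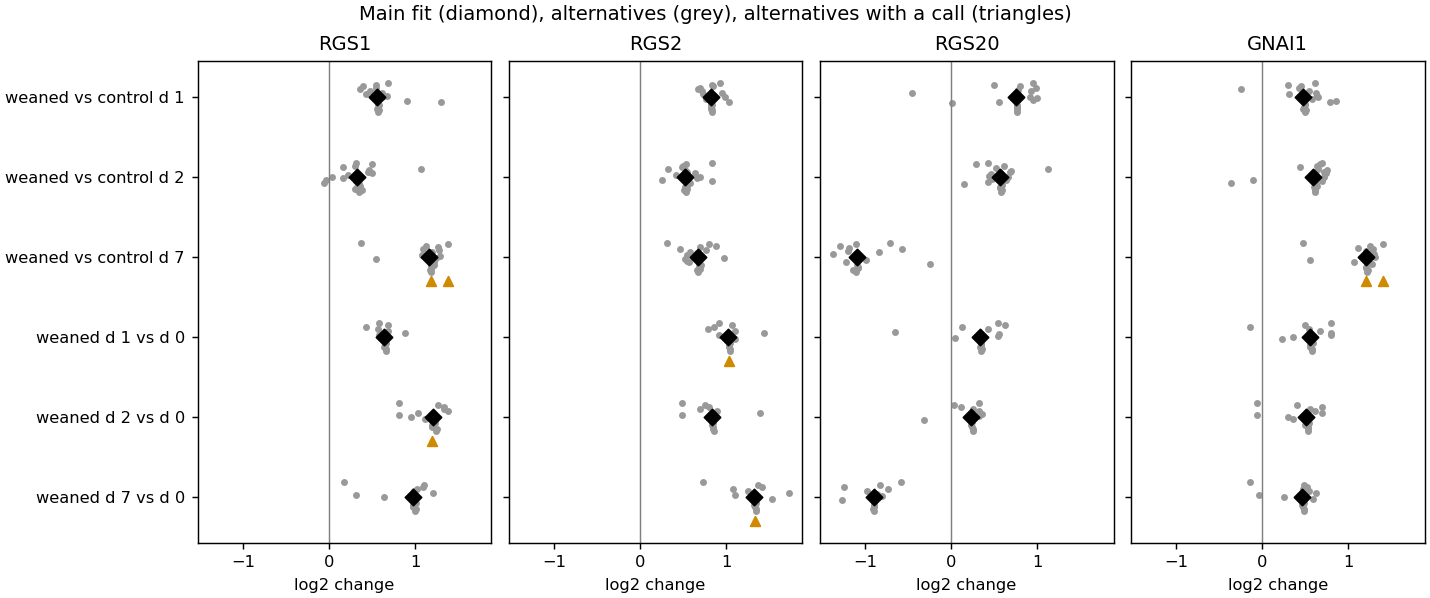
Log2 change (x axis) of each gene in 6 comparisons (y axis) as reported (black diamond), in every alternative (grey points), and in those alternatives in which the gene was called (orange triangles below). RGS2 stays above 0 in each alternative shown. Between treatments on d 7, RGS1, RGS2 and GNAI1 are at 0.37, 0.31 and 0.48 without calves 1758 and 1770.

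Of the other genes on the lists made for the pathway, 11 had a symbol. They were RGS11, RGS13 and RGS17, the alpha subunit GNAT2, the gamma subunit GNG12, and the receptors P2RY12 and P2RY14. The list of effectors gave ADCY8, ADCY10, PLCB1 and PLCB4. Symbols came only from genes that the study's own tables list, so these 11 were not independent of its results. Between treatments on d 7, 10 of the 11 could be tested and 0 were called with edgeR, while 3 were higher and 0 lower at an unadjusted p under 0.05, beside 17.6% of all genes higher. Their median log2 difference was 0.75, against 0.03 for all genes tested. In weaned calves on d 7 against d 0, 9 were tested, 0 were called and 0 had an unadjusted p under 0.05, beside 1.72% of all genes higher, with a median of 0.34 against 0.04.

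GNAT2, an alpha subunit known from cone photoreceptors, stood on d 7 at 20.7 ± 13.7 CPM (SD, n = 6) in the weaned group and at 9.90 ± 3.71 CPM in the control group, a log2 difference of 1.05 (SE 0.38, adjusted p = 0.158). It was highest in calf 1758, with 46.4 CPM, and the difference was 0.68 without calves 1758 and 1770 (SE 0.34, adjusted p = 0.573). In weaned calves its log2 change from d 0 was 0.73 on d 1 (SE 0.31, adjusted p = 0.423) and 0.67 on d 7 (SE 0.36, adjusted p = 0.920), the latter 0.23 without the libraries that resembled another calf. P2RY12, a purinergic receptor coupled to inhibitory G proteins, differed by 1.17 between treatments on d 7 (SE 0.44, adjusted p = 0.158), and its log2 change in weaned calves was 0.69 (SE 0.42, adjusted p = 0.920). Calf 1758 on d 7 held 44.3% of the P2RY12 counts of its group. Without the libraries that resembled another calf, these values were 0.47 (SE 0.36, adjusted p = 0.608) and -0.10 (SE 0.37, adjusted p = 1.00). P2RY14, a related receptor, differed by -0.35 (SE 0.57, adjusted p = 0.698), or -0.9986 without those libraries (SE 0.63, adjusted p = 0.576). Of the effectors, the phospholipase PLCB1 differed by 1.31 (SE 0.68, adjusted p = 0.222) and the adenylyl cyclase ADCY8 by -0.62 (SE 0.56, adjusted p = 0.456) between treatments, and by 0.51 (SE 0.59, adjusted p = 0.920) and -0.64 (SE 0.57, adjusted p = 0.920) against d 0. Without those libraries, PLCB1 differed by 1.04 and ADCY8 by -0.16 between treatments, and by 0.12 and -0.14 against d 0. PLCB1 was at or under 3 counts in 5 of the 6 control libraries on d 7, a group that held 13 counts of it. The weaned group held 41, so the PLCB1 values carry a large counting error. The remaining RGS genes and GNG12 were at or under 3 counts in at least 5 of the 6 control libraries on d 7, and are given as counts only. On that day, the treatments held 22 (weaned) and 6 (control) counts of GNG12. Likewise, the weaned and the control group held 10 and 6 counts of RGS11, 7 and 0 of RGS13, and 19 and 5 of RGS17.

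The levels of RGS1 and GNAI1 went together across the 48 libraries (Pearson's r of log2(CPM + 1) = 0.62). Weaker values were found for RGS2 with GNAI1 (r = 0.39), with RGS20 (r = -0.35) and with RGS1 (r = 0.26). RGS20 had an r of 0.01 with RGS1 and 0.03 with GNAI1. These 48 points come from 12 calves and share library and depth, so that r is a description only. Among 446 genes with a symbol and a mean of at least 1 CPM, RGS1 was most like JAK2 (r = 0.83), P2RY12 (r = 0.82) and RICTOR (r = 0.79). GNAI1 was most like ORC2L, EDEM3 and SLC35A3 (each r = 0.88). Each of these 6 genes was highest in weaned calf 1758 on d 2, and 5 of the 6 had weaned calf 1758 on d 7, weaned calf 1773 on d 1 and control calf 1755 on d 1 among their 4 highest libraries. P2RY12 had weaned calf 1762 on d 2 in place of calf 1773. TRAT1, the 1 of 12 T cell markers with a symbol, was also highest in weaned calf 1758 on d 7, with 104 CPM, and on d 2, with 83.7 CPM. The medians of TRAT1 in weaned calves were 27.0 CPM on d 0 and 25.9 CPM on d 7, and in control calves 30.6 and 12.7 CPM. The NK and cytotoxic cell markers KLRK1 and GZMA, 2 of the 8 listed, summed to 68.3 and 38.5 CPM in weaned calf 1758 on d 7 and d 2 and to 50.8 CPM in control calf 1755 on d 1, each the highest of its group, against medians of 19.7, 18.7 and 22.9 CPM. In weaned calves on d 1, their sum was highest in calf 1769 (48.9 CPM) and not in calf 1773, where KLRK1 alone was highest (29.4 CPM). In weaned calves on d 2, KLRK1 was highest in calf 1758 (27.5 CPM) but GZMA in calf 1769 (21.6 CPM). The eosinophil markers IL5RA and ALOX15, 2 of the 7 listed, summed to 369.8 CPM in weaned calf 1758 on d 2, against a median of 180.6 CPM, but on d 7 they were highest in calf 1770. A change in the share of a cell type and one in the RNA of each cell cannot be told apart in these samples. The part of either in the values of RGS1, RGS2 and GNAI1 was not tested.

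RGS2 was most like IL8 (r = 0.68), which encodes a chemokine that attracts neutrophils, HAL (r = 0.61) and GNAT2 (r = 0.59). IL8 was highest in weaned calf 1758 on d 2 (8.85 CPM) and weaned calf 1773 on d 1 (7.86 CPM), 2 of the 5 libraries with the highest RGS2. RGS20 was most like PPBP (r = 0.61), a chemokine of platelets, TAC3 (r = 0.58) and CLU (r = 0.54). PPBP, the 1 of 9 platelet markers with a symbol, had 28.8 CPM in weaned calf 1769 on d 1 and 9.87 CPM in control calf 1789 on d 7, the pair of libraries with the highest RGS20, against a median of 1.83 CPM. The red cell markers HBB, ALAS2 and SLC4A1, 3 of the 7 listed, summed to 64.6 CPM and 49.0 CPM in the same libraries, while the median of their sum was 9.84 CPM in weaned calves on d 1 and 11.9 CPM in control calves on d 7. In these libraries, HBB had 36.4 and 40.5 CPM and ALAS2 28.2 and 8.46 CPM. SLC4A1 had 0 counts in the weaned group on d 1, and among control calves on d 7 it was highest in calf 1803. The part of platelet or red cell RNA in the RGS20 values was not tested.

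**Figure D5:**
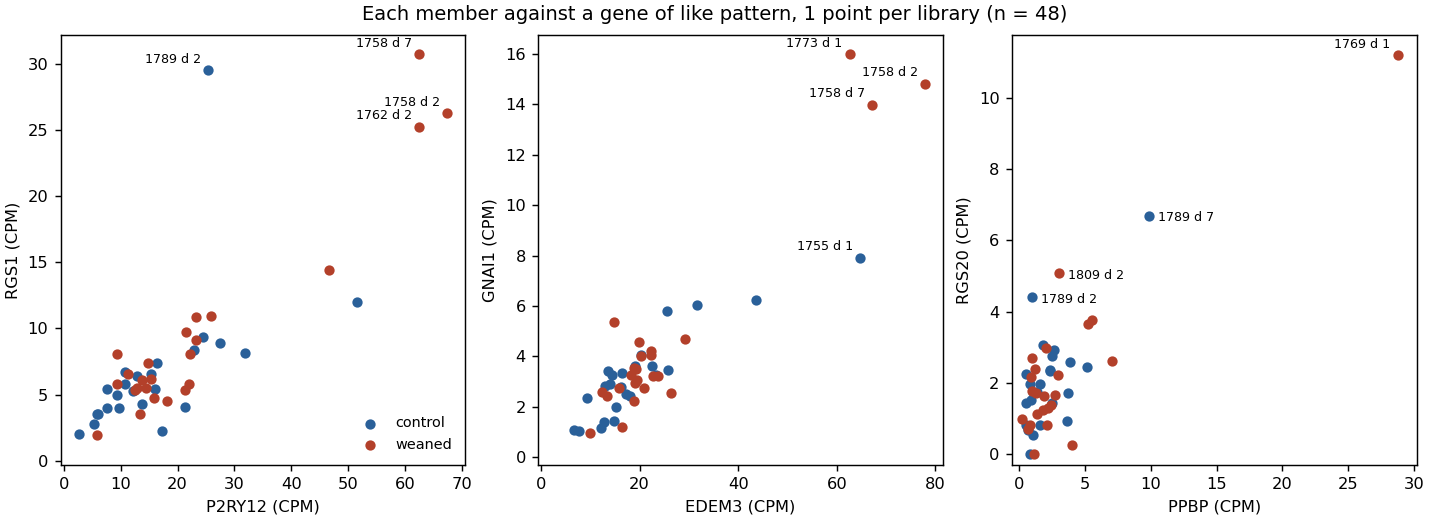
Levels in CPM of RGS1 against P2RY12, GNAI1 against EDEM3 and RGS20 against PPBP, with 1 point per library (n = 48), weaned calves in red and control calves in blue, and the 4 libraries with the highest level of each gene labelled by calf and day. The 4 libraries with the highest GNAI1 had at least 62.6 CPM of EDEM3. The 2 with the highest RGS20 also had the highest PPBP, whereas the next 2 had 3.04 and 1.04 CPM of PPBP, and RGS1 in control calf 1789 on d 2 (29.5 CPM) stands away from the others.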

How the data were processed

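Leukocyte mRNA of 12 calves was sequenced as single reads of 36 bp, in 48 libraries. The authors aligned the reads to Btau4.0 with Bowtie 0.12.7 allowing no mismatch, discarded reads that aligned more than once, removed all but 1 read per position and counted reads per Ensembl gene with HTSeq 0.4.6p2, and the deposited values are raw counts per gene. Use of strand in the counting is not given in the sources used here. RGS2 has a second locus under its name in RefSeq's ARS-UCD2.0 table, and reads aligning equally to both would have been lost, so that its level is uncertain. Symbols came from human orthologs in the study's supplementary tables, which name 644 genes. No sequence is printed, since no table used here holds one. The 4 genes and the lists were chosen with earlier results of these data known.

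Groups followed the labels. Genes with at least 10 counts over the libraries compared were tested with edgeR 4.0.16 in R 4.3.3 (TMM, quasi-likelihood F-test), 12 libraries per comparison, and interactions over 24 libraries with calf as a block. Named genes were the 4 genes, other RGS genes and alpha subunits, for each other list the gene with the smallest p in each direction, and the 3 genes most like each of the 4. Exact permutation tests used log2(CPM + 1), with CPM scaled by TMM factors over 48 libraries: 40 tests, 3 with p under 0.05, none adjusted. Between days, the numbers pair samples because they name the calf, and over 11071 genes, 29 of 36 pairs of libraries of a calf deviated together (r over 0.1, median 0.353). The flowcell came from the study's lane table. Alternatives were RLE size factors, DESeq2 1.42.0, edgeR's exact test with a common dispersion, no filter, filterByExpr, all 48 libraries in 1 fit, flowcell or calf as a block, each calf left out, and a pseudocount of 0.1. Leaving out the libraries that resembled another calf was chosen after seeing the data. Libraries of a group differed by a chi-square per degree of freedom of 2.88 to 62.1, above counting error, so none was a repeat of another. Procedures were tested on simulated data. Figures were made in Python 3.11.15 with matplotlib 3.10.9.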

Additional observations from a re-analysis of the deposited data

Results flagged for a closer look

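In 10 of the 32 groups of 6 calves, over the 4 genes and 8 groups, 1 calf lay apart from the other 5 by more than the 95% critical value of Dixon's test. With normal and independent values, about 1 of 20 groups would exceed it. The test was run on CPM without a log scale, and the groups share calves, so that rate need not hold here. For RGS1, the calves that lay apart were weaned calf 1758 on d 7 (30.7 CPM) and control calf 1789 on d 2 (29.5 CPM). For RGS2, it was weaned calf 1762 on d 0 (12.8 CPM), before weaning. For RGS20, they were weaned calf 1769 on d 1 (11.2 CPM) and control calf 1789 on d 2 (4.40 CPM) and d 7 (6.70 CPM). For GNAI1, they were weaned calf 1773 on d 1 (16.0 CPM) and weaned calf 1758 on d 2 (14.8 CPM) and d 7 (13.99 CPM), all high, and control calf 1802 on d 2 (1.45 CPM), which was low. Calf 1758 gave 3 of these values and calf 1789 another 3. The d 7 library of calf 1758 is one of those that resembled another calf.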

How the results depend on the processing

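Of the 4 genes, none was called under RLE size factors, DESeq2, no filter, filterByExpr, a single fit over the 48 libraries, a flowcell block, or without the libraries that resembled another calf. RGS1 and GNAI1 were called between treatments on d 7 without weaned calf 1809, where 1137 of the 13852 genes tested were called. The exact test of edgeR gave the 5 calls named above. FilterByExpr left RGS20 out of every comparison and GNAI1 out of 2, and the exact test, the single fit and the flowcell block were run on the comparisons of groups alone. Depth limits RGS20, which was at or under 3 counts in 10 libraries. The number of all genes called, 0 in each comparison but control calves on d 7 against d 0 (516), was with edgeR's exact test 68, 40, 75 and 865 between treatments on d 0, 1, 2 and 7, 64, 62 and 38 in weaned calves on d 1, 2 and 7, and 18 in control calves on d 2. With DESeq2 it was 28 between treatments on d 7, 1 in weaned calves on both d 1 and d 7, and 4 and 950 in the interactions on d 1 and d 7. With edgeR's quasi-likelihood test and no filter it was 625 in the interaction on d 7. In control calves on d 7 it was 1 in the fit of all 48 libraries and 11 with flowcell as a block. With 1 calf left out, it ran from 0 to 1137 between treatments on d 7 (1137 without weaned calf 1809), from 0 to 1086 in control calves on d 7 (0 without each of calves 1755, 1759 and 1763, 790 without calf 1802 and 1086 without calf 1803), and from 0 to 1 in the interaction on d 1. The causes were not tested.

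Calves pair the days, which the main fits between days left out. Calf as replicate block gave 2 called genes in weaned calves on d 1 and changed no call of the 4 genes. No paired analysis was possible between treatments because weaned and control calves share no calf.

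The direction of some log2 values turned. With flowcell as a block, between treatments, RGS20 was -0.13 and GNAI1 0.03 on d 0, and RGS1 -0.06 and GNAI1 -0.36 on d 2. Against d 0, RGS20 was -0.31 in weaned calves on d 2, RGS1 0.02 and GNAI1 0.22 in control calves on d 1, and RGS20 -0.01 in control calves on d 7. Without the libraries that resembled another calf, GNAI1 was -0.06 on d 2 and -0.14 on d 7 in weaned calves, and RGS2 -0.16 in control calves on d 2. The mean changes behind the exact permutation tests were then 0.11 for RGS20 on d 1, -0.00 and -0.12 for GNAI1 on d 2 and d 7 in weaned calves, and -0.19 for RGS2 in control calves on d 2, which was -0.03 with a pseudocount of 0.1. Those of RGS1 on d 2 (0.56, exact p = 0.0625) and RGS2 on d 7 (0.72, exact p = 0.125) in weaned calves kept their direction in tests that can give no lower p.

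With 1 calf left out, the ranges that crossed 0 between treatments were -0.13 to 0.32 for RGS20 and -0.32 to 0.02 for GNAI1 on d 0, -0.45 to 1.00 for RGS20 and -0.25 to 0.86 for GNAI1 on d 1, and -0.04 to 1.07 for RGS1 and -0.11 to 0.75 for GNAI1 on d 2. In weaned calves, they were -0.65 to 0.62 for RGS20 and -0.14 to 0.80 for GNAI1 on d 1, and -0.06 to 0.70 and -0.04 to 0.63 for GNAI1 on d 2 and d 7. In control calves, they were -0.35 to 0.03 for RGS1, -0.04 to 0.15 for RGS2 and -0.31 to 0.23 for GNAI1 on d 1, -0.14 to 0.86 for RGS1 and -0.16 to 0.31 for RGS2 on d 2, and -0.28 to 0.51 for RGS20 on d 7. In the interaction on d 1, RGS20 ran from -0.19 to 0.81.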
